A study of Mus musculus with 12 samples.

Results

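The genotype by quercetin interaction asks whether the ileum of POR-null mice responded to a quercetin diet differently from the ileum of wild-type mice. It was computed for each probe set as the quercetin response in POR-null mice minus the quercetin response in wild-type mice, where a response is the mean log2 level of the 3 quercetin arrays minus that of the 3 control arrays. All 12 arrays and 22626 of the 22690 features on the array entered; the 64 array controls were left out. A negative interaction therefore means a lower response in POR-null than in wild-type mice. The genes described most closely are those whose response had one sign in wild type and the opposite sign in POR-null.

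The tissue was the ileum, the last of 3 equal parts of the small intestine, and RNA came from its scraped epithelial layer. All 4 groups were male mice of 6 to 8 weeks, labelled C57BL/6, fed the same soya-free RM3 powdered diet for 14 days. The wild-type control and POR-null control groups then stayed on that diet, and the wild-type quercetin and POR-null quercetin groups received it with quercetin at 6.2 g per kg (7 mg per mouse). Tissue was taken after 24 h. Each array held RNA pooled from 3 mice, so 9 mice stood behind each group and the spread between arrays is the spread between pools. POR-null mice lack NADPH-cytochrome P450 reductase. Which tissues lack it is not given in the labels; the line is known from the study as hepatic, with the gene deleted in hepatocytes by a Cre recombinase under the albumin promoter. Por itself is not analysed here, so the genotype labels, on which every interaction rests, were not checked against the deleted gene.

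Quercetin is a plant flavonol that enterocytes take up, conjugate and partly pump back into the gut lumen, and that reaches the liver through the portal vein. Cytochrome P450 reductase hands electrons to the microsomal P450 enzymes, among them those of bile acid, sterol and drug metabolism in the liver. The ileum is linked to the liver by bile acids: it takes them up, senses them through the nuclear receptor FXR (Nr1h4) and returns the hormone FGF15. It also holds organised lymphoid tissue (Peyer's patches), so that scrapings can carry lymphocytes beside epithelium.

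A few ileal markers were read beside the ileal label, with no other gut segment measured for comparison. Fabp6, the ileal bile acid binding protein, lay between 12.05 and 12.76 in the 12 arrays (log2 level). Slc51a, a subunit of the basolateral bile acid exporter, lay between 11.71 and 12.39. Slc10a2, the apical bile acid carrier, was lower, between 5.22 and 7.52, and so was Fgf15, whose values are given below. Within groups, r between arrays over the probe sets ran from 0.9917 to 0.9956. One array stood apart: wild-type control replicate 2 had a first principal component score of 25.6 while the other 11 lay between -10.6 and 10.8. It also had the highest score of 15 proximal small intestine genes, 0.77 against -0.35 to 0.34 (mean log2 level of the genes after centring each on its mean over the 12 arrays). Since that array is 1 of the 3 from which every wild-type response was taken, list medians that moved by over 1.5 times or changed sign without it are given both ways.

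No probe set passed the interaction test at an adjusted p of 0.05 (limma, Benjamini-Hochberg, 0 of 22626, 0.0%). Without adjustment, 2332 probe sets (10.3%) had p under 0.05, 959 with a negative and 1373 with a positive interaction. The smallest adjusted p was 0.0917, shared by Cd79b, which carries signals from the antigen receptor of B cells, and Gas5, a non-coding host gene of small nucleolar RNAs. The median standard error of the interaction was 0.13 on the log2 scale, against 0.089 for a response in 1 genotype. All single-gene values below therefore describe estimates that did not pass, and none is called a change.

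Opposite responses made up 12192 of the 22626 probe sets, or 53.9%. In 4677 of them the level with quercetin was higher in wild type and lower in POR-null, and in 7515 the reverse. A further 9895 had the same sign in both genotypes and 539 had a response of exactly 0 in a genotype. Across probe sets the responses of the 2 genotypes, which share no array, correlated with r = -0.07; the points share their arrays within each genotype, so this is a description.

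Stricter definitions left few probe sets. With an unadjusted p under 0.05 in both genotypes there were 123 of opposite sign, 67 higher in wild type and lower in POR-null (0.296% of those tested) and 56 of the reverse pattern (0.248%), beside 71 of the same sign. With no overlap between the quercetin and control arrays in either genotype there were 220 of opposite sign, 71 higher in wild type and lower in POR-null (0.314%) and 149 of the reverse (0.659%), beside 129 of the same sign. Among the 2332 probe sets with an unadjusted interaction p under 0.05, 2186 (93.7%) had opposite signs, which the interaction favours by its construction.

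The balance between both opposite patterns moved with the scaling of the arrays. Of the opposite pairs, 38.4% were higher in wild type and lower in POR-null as deposited, 45.7% after quantile normalization and 52.0% after centring each array on its median. The counts without overlap were 71 and 149 as deposited, 83 and 112 after quantile normalization, and 103 and 90 after centring. The counts with p under 0.05 in both genotypes were 67 and 56, 78 and 52, and 98 and 32, in the same order. Negative and positive interactions with p under 0.05 numbered 959 and 1373, 1044 and 982, and 1425 and 814. The more frequent pattern therefore changed with the scaling under 3 of these definitions, and with p under 0.05 in both genotypes it was the one higher in wild type under each of the 3 scalings.

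The balance also moved with the level of the probe sets. In 4 equal bins of probe sets from dimmest to brightest, median interactions were 0.06, 0.08, 0.02 and -0.05 as deposited and 0.0088, 0.019, 0.014 and -0.0054 after quantile normalization. Probe sets without overlap that were higher in wild type and lower in POR-null had a median level of 7.27, and those of the reverse pattern 5.20, against 5.93 over all. Of the latter, 55 of 149 lay below the lower quartile of levels (4.74), against 2 of 71. The part of dim signal in the second pattern was not tested.

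**Figure D1:**
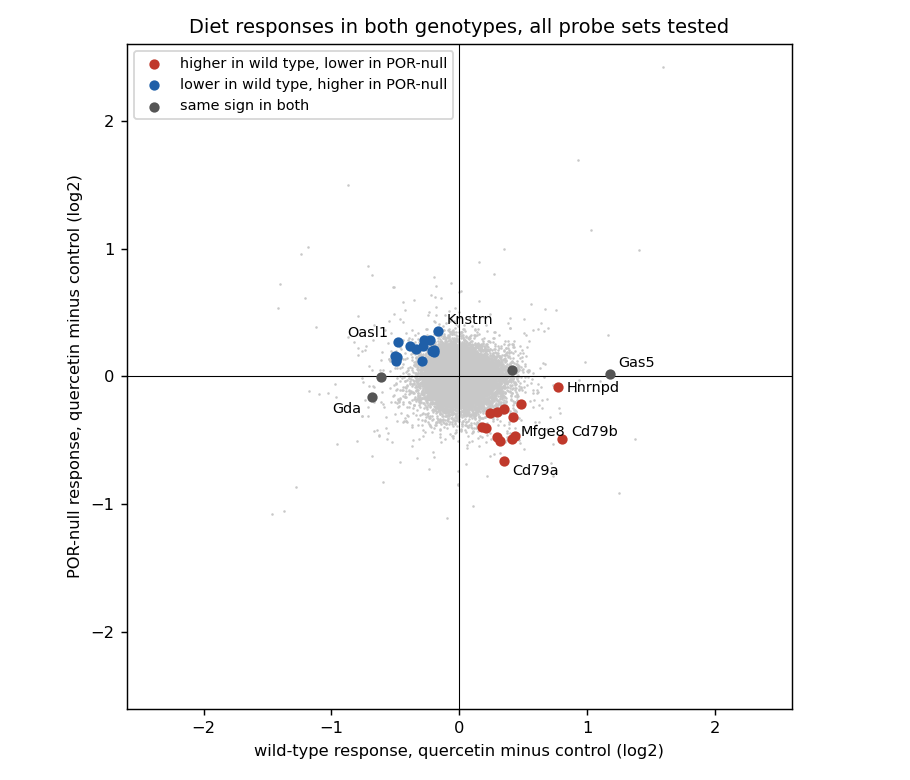
Quercetin response in wild type (x axis) against that in POR-null (y axis), both as log2 differences, for all 22626 probe sets (grey). The genes described individually are coloured: 14 in the lower right quadrant (higher in wild type, lower in POR-null), 14 in the upper left (the reverse), and 4 of the same sign, with Gas5 far to the right at 1.18 and close to 0 in POR-null.

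Genes were described individually by the size of the interaction p, 14 for each opposite pattern and 4 of the same sign, so their p-values and directions are the values that chose them. In the first group, higher in wild type and lower in POR-null, wild-type responses ran from 0.18 to 0.81, POR-null responses from -0.66 to -0.08 and interactions from -1.30 to -0.53, with adjusted p from 0.0917 to 0.261 (limma). In 13 of these 14 genes both responses had an unadjusted p under 0.05, and in 11 the quercetin and control arrays did not overlap in either genotype. In the second group, lower in wild type and higher in POR-null, wild-type responses ran from -0.50 to -0.17, POR-null responses from 0.12 to 0.35 and interactions from 0.39 to 0.75, with adjusted p from 0.261 to 0.351. There 8 of 14 had p under 0.05 in both genotypes and 7 of 14 had no overlap in either. In all 28 genes the order of the genotypes turned over with the diet: the genotype that was higher on the control diet was lower on quercetin. The choice by interaction p favoured this turn, since the interaction is equally the genotype difference on quercetin minus that on control. Among probe sets not chosen in this way, the same turn was seen in 71.7% of all those of opposite sign and in 55.0% of all tested. The count in the 28 genes is therefore a description.

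Both chains of the B cell receptor's signalling unit headed the first group. Cd79b stood at 6.75, 6.83 and 7.15 in wild-type control, at 7.54, 7.74 and 7.87 in wild-type quercetin, at 7.45, 7.18 and 7.58 in POR-null control and at 6.78, 6.95 and 7.00 in POR-null quercetin. The quercetin arrays were all above the controls in wild type and all below them in POR-null. The responses were 0.81 ± 0.13 and -0.49 ± 0.13 (log2, SE), or 1.75 and 0.71 times control, and the interaction was -1.30 ± 0.18 (limma, adjusted p = 0.0917). Its adjusted p lay between 0.00774 and 0.38 over the alternatives tried, and it stood under 0.05 in 6 of them.

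Cd79a, the partner chain of Cd79b, had 7.01, 7.27 and 7.54 in wild-type control and 7.66, 7.54 and 7.66 in wild-type quercetin. In POR-null it had 7.50, 7.53 and 7.52 on control and 6.82, 6.66 and 7.09 on quercetin. The POR-null groups did not overlap, and the wild-type groups met at 7.54. The interaction was -1.01 ± 0.17 (adjusted p = 0.151), from responses of 0.35 and -0.66. POR-null minus wild type, the level of Cd79a was 0.24 on the control diet and -0.76 on quercetin.

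Rtn4, which shapes the membranes of the endoplasmic reticulum, was at 8.98, 8.96 and 9.13 in wild-type control and at 9.39, 9.42 and 9.30 with quercetin. The POR-null arrays read 9.44, 9.38 and 9.47 on control and 9.09, 9.13 and 9.30 on quercetin, without overlap in either genotype. The interaction was -0.60 ± 0.11 (adjusted p = 0.151), and the other probe set of Rtn4 had the same pattern at -0.27. Exosc9 encodes a subunit of the RNA exosome, the complex that trims and degrades RNA. It was at 6.88, 6.61 and 6.56 in wild-type control, at 7.22, 7.08 and 7.19 in wild-type quercetin, at 7.10, 6.98 and 7.21 in POR-null control and at 6.83, 6.85 and 6.96 in POR-null quercetin. Neither genotype's groups overlapped, though in POR-null the gap was 0.02 wide, between 6.96 and 6.98. Its interaction was -0.70 ± 0.13 (adjusted p = 0.176).

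Mfge8, a secreted protein that bridges phagocytes to dying cells, was at 8.15 ± 0.15 in wild-type control and 8.56 ± 0.18 in wild-type quercetin (SD, n = 3). In POR-null it was at 8.56 ± 0.24 on control and 8.07 ± 0.15 on quercetin. The groups did not overlap in either genotype, and the interaction was -0.90 ± 0.18 (adjusted p = 0.261). Slc15a4, a lysosomal transporter of histidine and small peptides, had responses of 0.24 and -0.29. Ostf1, an SH3-domain protein, had 0.42 and -0.32, and Ube2d1, a ubiquitin-conjugating enzyme, 0.29 and -0.28. All of these 3 were without overlap in both genotypes.

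Among genes of the epithelium itself, Ces2a, an intestinal carboxylesterase that hydrolyses esters of drugs and lipids, was at 9.65 ± 0.14 and 10.09 ± 0.23 in wild type, and at 9.98 ± 0.23 and 9.51 ± 0.16 in POR-null (control and quercetin, SD, n = 3). Ehf, an ETS transcription factor of epithelia, was at 6.47 ± 0.06 and 6.79 ± 0.24 in wild type, with 6.89 ± 0.04 and 6.39 ± 0.24 in POR-null. The interactions were -0.91 ± 0.19 for Ces2a and -0.83 ± 0.17 for Ehf (adjusted p = 0.261 for both), and neither gene's groups overlapped in either genotype. The other 2 probe sets of Ehf had interactions of -0.62 and -0.27. B4galt4, a galactosyltransferase of the Golgi, had responses of 0.21 and -0.41. H2aw, a histone H2A gene, had responses of 0.30 and -0.48; its wild-type groups overlapped by 0.01, between 4.52 and 4.53.

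Hnrnpd, an RNA-binding protein of AU-rich messages, belonged to the first group mainly by its wild-type response. It was at 7.92, 7.61 and 7.88 in wild-type control and at 8.57, 8.57 and 8.58 in wild-type quercetin, with no overlap. In POR-null it was at 8.52, 8.03 and 8.29 on control and at 8.25, 8.02 and 8.32 on quercetin, which overlapped. The POR-null response of -0.08 ± 0.12 was within its error, and it lost its sign without POR-null control replicate 1 or without POR-null quercetin replicate 2. Hnrnpd was the only one of the 28 genes whose pattern of signs changed under any of the alternatives tried.

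**Figure D2:**
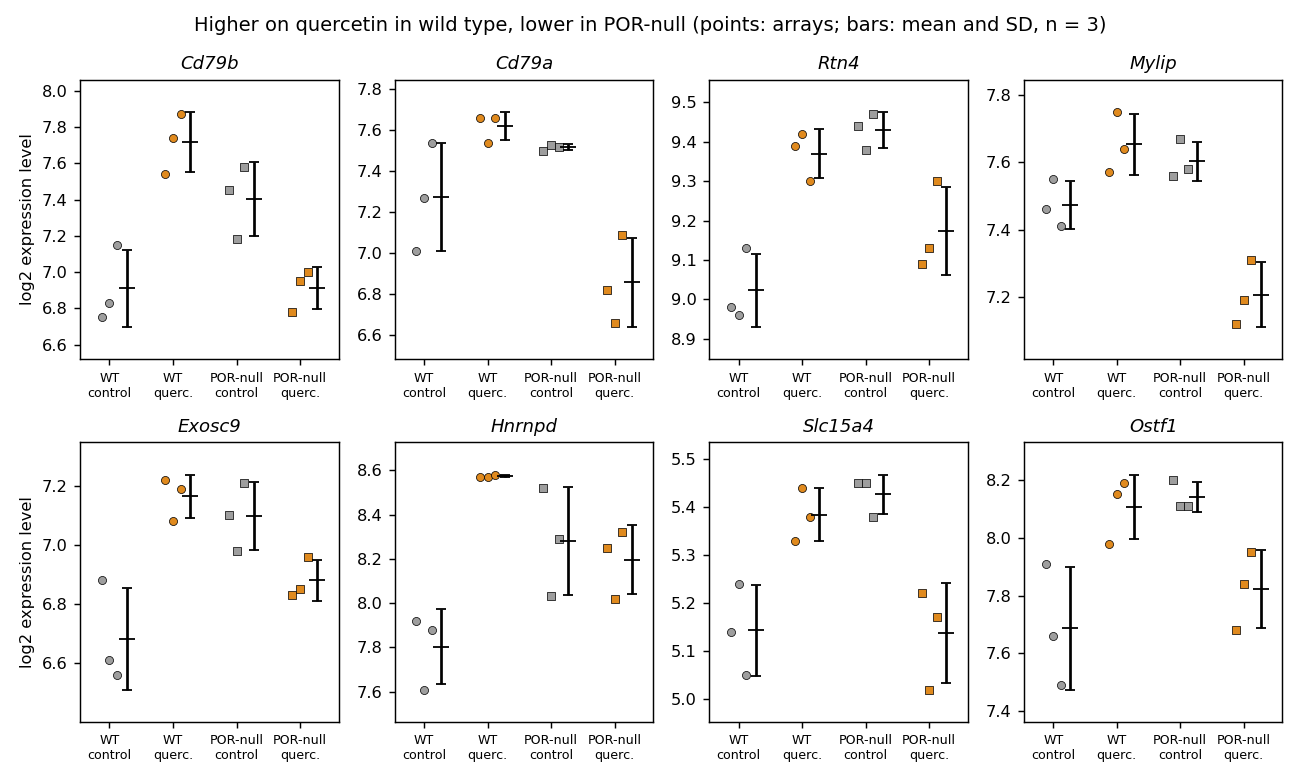
Log2 expression level by array for the 8 genes with the smallest interaction p among those higher on quercetin in wild type and lower in POR-null (points, arrays; bars, mean and SD, n = 3 per group). In each panel the wild-type quercetin group lies above its control and the POR-null quercetin group below its own; Hnrnpd has overlapping POR-null groups.

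The reverse pattern was carried by smaller differences. Fmo1, a flavin monooxygenase that oxidises drugs with electrons taken directly from NADPH, was at 6.70, 6.82 and 6.60 in wild-type control and at 6.24, 6.48 and 6.25 in wild-type quercetin. In POR-null it was at 6.57, 6.38 and 6.30 on control and at 6.79, 6.71 and 6.47 on quercetin. The wild-type groups did not overlap and the POR-null groups did. The responses were -0.38 ± 0.10 and 0.24 ± 0.10, and the interaction was 0.62 ± 0.15 (adjusted p = 0.341).

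Oasl1, an interferon-induced protein related to the oligoadenylate synthetases, had the widest interaction of this group at 0.75 ± 0.18 (adjusted p = 0.346). It was at 9.24, 9.66 and 9.55 in wild-type control, at 8.78, 9.07 and 9.16 in wild-type quercetin, at 9.16, 8.83 and 8.76 in POR-null control and at 9.21, 9.25 and 9.09 in POR-null quercetin. The wild-type groups were separate, and the POR-null groups overlapped. Ppp1r15a, which brings a phosphatase to the translation factor eIF2 alpha after stress, was at 7.36, 7.64 and 7.26 in wild-type control and at 6.94, 6.96 and 6.91 with quercetin. In POR-null it was at 6.93 ± 0.17 and 7.09 ± 0.14 (control and quercetin, SD, n = 3), and the response of 0.15 ± 0.11 was close to its error. Sema7a, a membrane-anchored semaphorin, had responses of -0.49 ± 0.11 and 0.12 ± 0.11. Spats2l had -0.50 ± 0.12 and 0.16 ± 0.12. In these 3 genes, as in Oasl1, most of the interaction lay in the wild-type response.

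The other genes of the group had smaller wild-type responses. Cabp5, a calcium-binding protein best known from retina, was at 5.75, 5.81 and 5.77 in wild-type control and at 5.49, 5.51 and 5.47 in wild-type quercetin, and at 5.59, 5.35 and 5.40 and at 5.78, 5.72 and 5.55 in POR-null. Its other probe set read 0.02 and -0.02 and did not share the pattern. Sez6, a neuronal membrane protein, was at 7.13, 7.13 and 6.96 and at 6.90, 6.94 and 6.79 in wild type, and at 6.99, 6.92 and 6.97 and at 7.17, 7.17 and 7.16 in POR-null. Eya1, a transcriptional coactivator and phosphatase, was at 4.46, 4.34 and 4.41 and at 4.19, 4.13 and 4.24 in wild type, and at 4.24, 4.05 and 4.21 and at 4.42, 4.31 and 4.36 in POR-null. Sez6 and Eya1 had no overlap in either genotype, with interactions of 0.40 ± 0.10 and 0.41 ± 0.10 (adjusted p = 0.346 for both). Atcay, a neuronal protein, Dusp15, a dual-specificity phosphatase, and Fzd3, a Wnt receptor, were also without overlap in both genotypes. Their responses were -0.27 and 0.28 for Atcay, -0.20 and 0.19 for Dusp15, and -0.29 and 0.12 for Fzd3. So was Mbl2, a lectin of the complement system that is made mostly in liver, with responses of -0.34 and 0.22. Knstrn, a protein of the mitotic spindle, had responses of -0.17 and 0.35 by the probe set described and of 0.11 and -0.14 by its other one. Slc45a3, a solute carrier, had -0.23 and 0.29, and its other probe set -0.25 and 0.10.

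**Figure D3:**
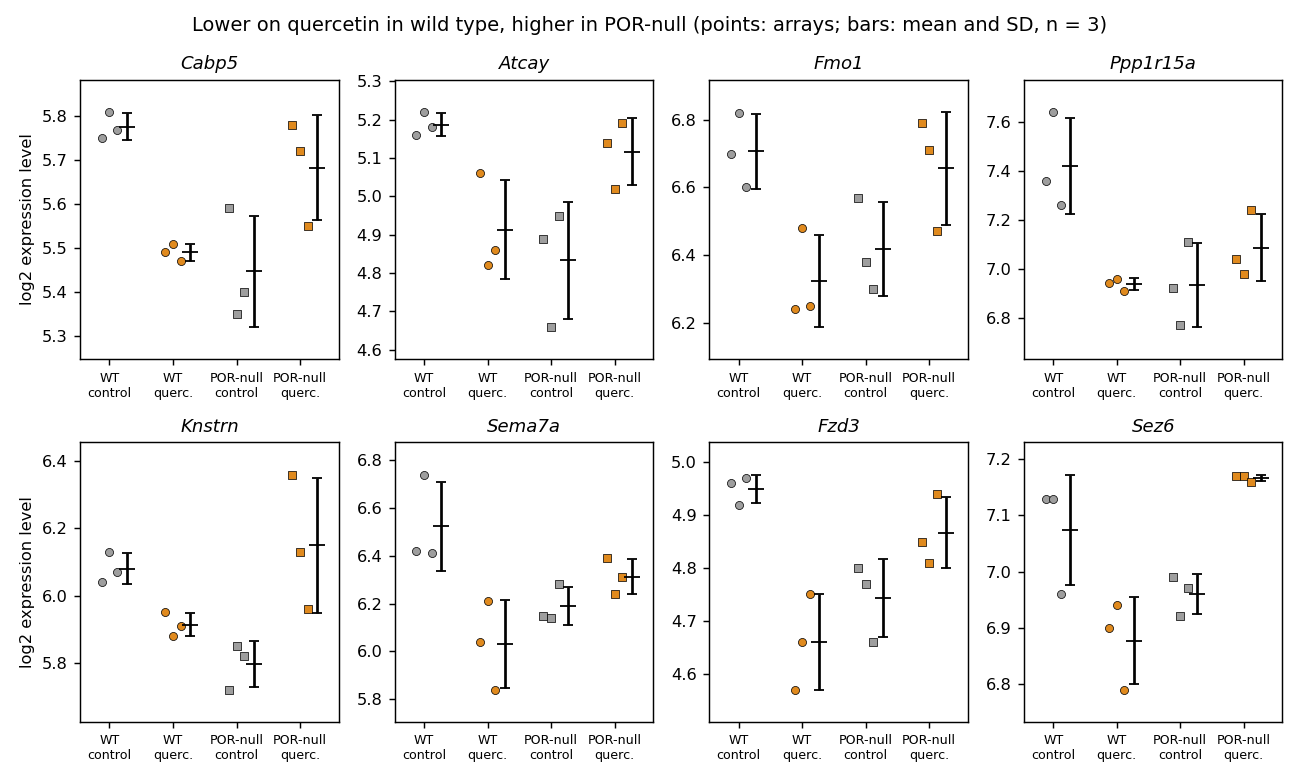
Log2 expression level by array for the 8 genes with the smallest interaction p among those lower on quercetin in wild type and higher in POR-null (points, arrays; bars, mean and SD, n = 3 per group). The wild-type control arrays lie above the wild-type quercetin arrays in all 8 panels, and in POR-null the order of the group means is reversed, with overlapping arrays in Cabp5, Fmo1, Ppp1r15a and Sema7a.

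Of the 28 genes, 9 had other probe sets, 13 in all, and 11 of these 13 had the same pattern of signs; those of Cabp5 and Knstrn did not. All the other genes of the 28, among them Cd79b, Cd79a, Mylip, Exosc9, Mfge8 and Ces2a, were measured only by the probe set described. No second probe set bears on them.

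The 4 genes described with the same sign in both genotypes had a larger response in wild type than in POR-null. Gas5 was at 7.81, 7.42 and 7.59 in wild-type control, at 8.83, 8.72 and 8.80 in wild-type quercetin, at 8.47, 8.30 and 8.61 in POR-null control and at 8.36, 8.72 and 8.35 in POR-null quercetin. The 3 wild-type control arrays were below the other 9, and the POR-null groups overlapped. The responses were 1.18 ± 0.12 and 0.02 ± 0.12, and the interaction was -1.16 ± 0.17 (adjusted p = 0.0917). The other 3 probe sets of Gas5 had interactions of -0.96, -0.80 and -0.30, with POR-null responses of -0.03, -0.07 and 0.11. Gda, a guanine deaminase of purine breakdown, had responses of -0.68 ± 0.10 and -0.16 ± 0.10. Osgep, an enzyme of transfer RNA modification, had 0.41 ± 0.07 and 0.05 ± 0.07. Aqp7, a water and glycerol channel, had -0.61 ± 0.13 and -0.0033 ± 0.13, and its other probe set -0.60 and 0.05. The pattern of signs changed under 3 of the alternatives tried for Gas5, 3 for Aqp7, 1 for Osgep and 0 for Gda.

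Gene lists were read by counting, among the measured members with 1 probe set per gene, how many had opposite responses. Over all 12393 genes, 20.8% were higher in wild type and lower in POR-null and 34.0% the reverse. These shares depended on level. Over all probe sets they were 13.6% and 41.2% in the dimmest of the 4 bins, and 31.0% and 17.5% in the brightest. Lists were not matched for level. An unadjusted interaction p under 0.05 was reached by 4.38% of genes with a negative and by 6.75% with a positive interaction. The median interaction was 0.03, so interactions above 0 were the more frequent over all genes. Their share was not counted, so the counts of members above or below 0 have no such share beside them. No member of the 39 lists passed the adjusted threshold. A list's median interaction is given beside these values as a description.

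**Figure D4:**
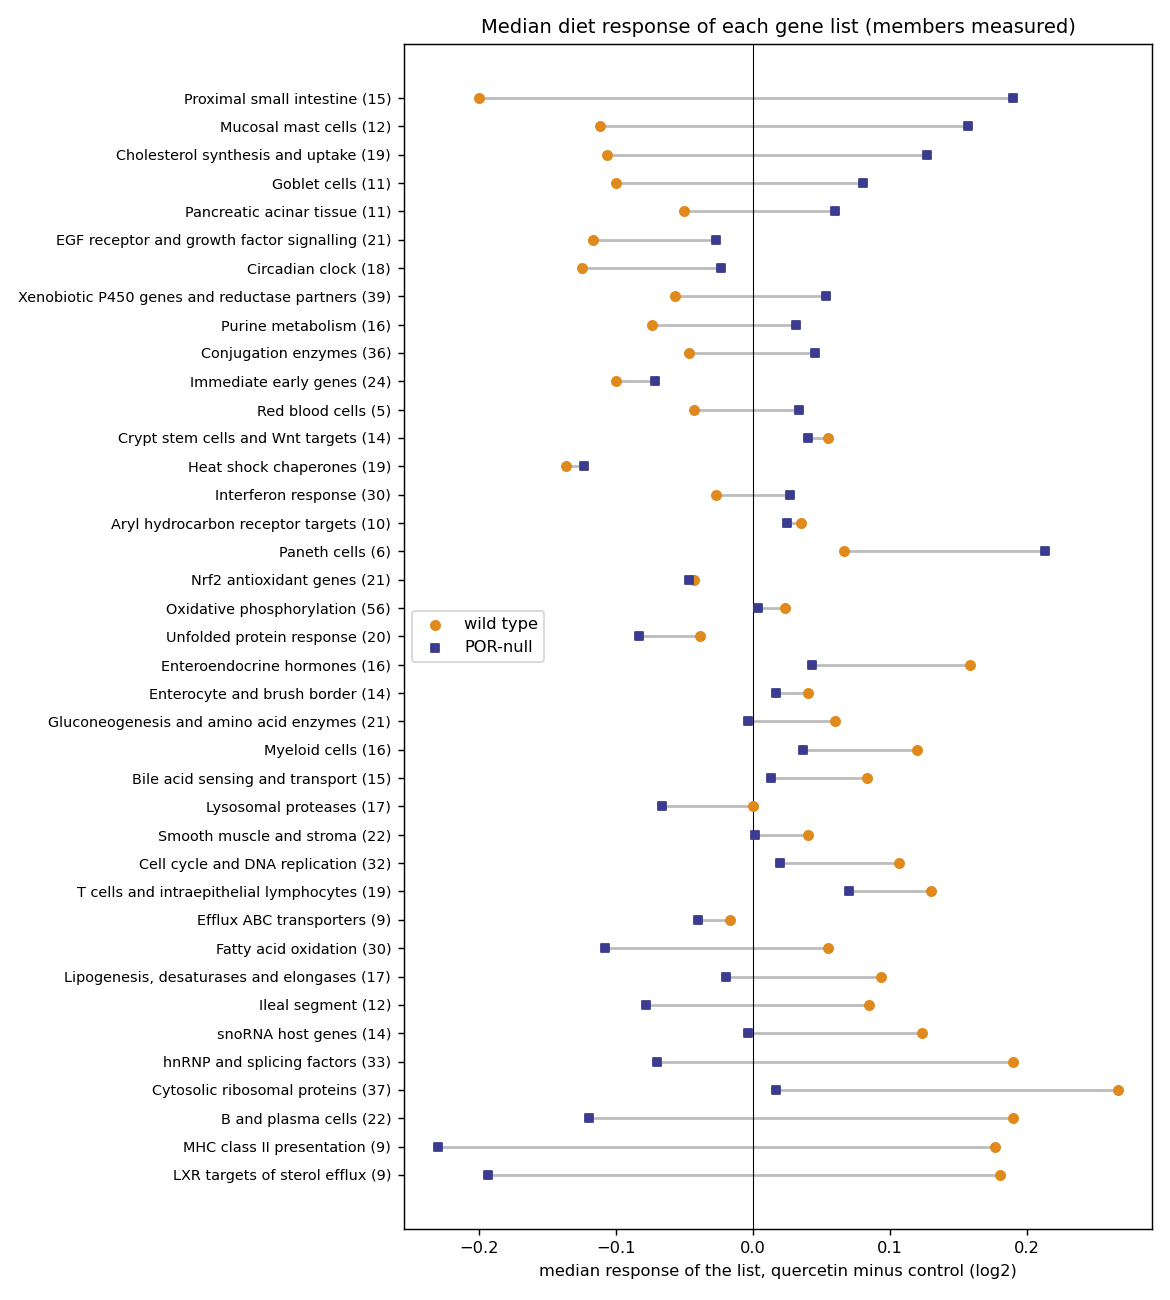
Median quercetin response of each of the 39 gene lists in wild type (orange circles) and POR-null (blue squares), as log2 differences, with the number of measured members in parentheses and lists ordered by median interaction. Proximal small intestine, mast cell and cholesterol synthesis genes lie at the top with wild-type medians below 0 and POR-null medians above 0, and LXR target, MHC class II and B cell genes lie at the bottom with the reverse.

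The liver X receptors (LXR) are nuclear receptors that sense oxidised sterols and switch on genes of sterol efflux. Of 9 measured LXR targets, 8 were higher in wild type and lower in POR-null and 0 had the reverse pattern. The median interaction was -0.49, with median responses of 0.18 and -0.19, and 5 members had an unadjusted interaction p under 0.05. Without wild-type control replicate 2, 7 of 9 had that pattern and the median was -0.41. After quantile normalization the count was 7 of 9 with 1 of the reverse pattern. Mylip was itself chosen by its interaction p; without it, 7 of 8 had the pattern, 4 had p under 0.05, and the median was -0.35.

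Mylip, the ubiquitin ligase that marks the LDL receptor for degradation, was the LXR target with the smallest p. It was at 7.46, 7.55 and 7.41 in wild-type control, at 7.57, 7.75 and 7.64 in wild-type quercetin, at 7.56, 7.67 and 7.58 in POR-null control and at 7.12, 7.19 and 7.31 in POR-null quercetin. The groups did not overlap in either genotype, and the interaction was -0.58 ± 0.11 (adjusted p = 0.176). Apoe, the apolipoprotein of cholesterol-rich particles, was at 6.04, 6.10 and 6.38 in wild-type control and at 6.79, 6.84 and 7.18 in wild-type quercetin, without overlap. In POR-null it was at 6.56 ± 0.25 on control and 6.46 ± 0.31 on quercetin, and the groups overlapped.

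Abca1, the exporter that loads cholesterol onto apolipoprotein A-I, is a classical LXR target. It was at 6.37, 5.61 and 6.13 in wild-type control, at 6.79, 6.58 and 6.93 in wild-type quercetin, at 5.46, 7.04 and 6.81 in POR-null control and at 5.77, 5.66 and 5.54 in POR-null quercetin. One POR-null control array lay below all 3 quercetin arrays and the other 2 lay more than 1 log2 unit above them. The interaction was -1.51 ± 0.43 (adjusted p = 0.359), and without POR-null control replicate 1 it was -1.998 with an adjusted p of 0.0409 (limma). Among the fits with a single array left out, Abca1 passed the adjusted threshold in that one only. It is quoted because it passed, so it does not describe how far the estimate moved. The highest POR-null control value, 7.04, was that of replicate 2, and the estimate without replicate 2 is not given. POR-null control replicate 1 was also the lowest of its group for Fgf15, at 5.31 against 7.20 and 6.85. It had the highest smooth muscle and stroma score of all 12 arrays, 0.69. The part of that array's cell makeup in these values was not tested. Abcg8, which with Abcg5 returns plant sterols and cholesterol to the gut lumen, had responses of 0.26 ± 0.12 and -0.23 ± 0.12.

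Genes of cholesterol synthesis and uptake, which SREBP2 switches on when membrane sterol is low, pointed the other way. Of 19 measured, 11 were lower in wild type and higher in POR-null, 0 had the reverse pattern, and 17 had an interaction above 0. The median interaction was 0.26, from median responses of -0.11 and 0.13, and 6 members had an unadjusted p under 0.05. Without wild-type control replicate 2 the median was 0.18 and the count was 11, with 1 of the reverse pattern. After quantile normalization the median was 0.32 with 13 of that pattern.

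Fdps, which makes farnesyl diphosphate, was at 9.29, 9.16 and 9.02 in wild-type control, at 8.97, 8.86 and 9.08 in wild-type quercetin, at 9.06, 9.10 and 9.30 in POR-null control and at 9.27, 9.36 and 9.64 in POR-null quercetin. Both genotypes' groups overlapped in single arrays, and the interaction was 0.46 ± 0.15 (adjusted p = 0.413). Fdft1, squalene synthase, had responses of -0.14 ± 0.09 and 0.25 ± 0.09. Mvk, mevalonate kinase, had -0.17 ± 0.10 and 0.21 ± 0.10. Lss, which closes the sterol ring, had 0.00 ± 0.14 in wild type and 0.46 ± 0.14 in POR-null, where its groups did not overlap.

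The promoters of a gene of each sterol list are shown because both lists are known targets of sterol-sensing factors and their responses ran in opposite directions. Hmgcs1, which makes the mevalonate precursor HMG-CoA, was chosen after its values were seen, as the member of the cholesterol list whose promoter held a sterol element. It had responses of -0.14 ± 0.12 and 0.25 ± 0.12. The sequences come from RefSeq on GRCm38.p6 and run from 250 bases before the transcription start to 50 after it, on the plus strand: chr13:119690101-119690400 for Hmgcs1 and chr13:45389492-45389791 for Mylip. Capitals mark matches on either strand to the sterol regulatory element TCACCCCAC or to the CCAAT box, read as ATTGG on the strand shown where it lies on the other one.
Hmgcs1: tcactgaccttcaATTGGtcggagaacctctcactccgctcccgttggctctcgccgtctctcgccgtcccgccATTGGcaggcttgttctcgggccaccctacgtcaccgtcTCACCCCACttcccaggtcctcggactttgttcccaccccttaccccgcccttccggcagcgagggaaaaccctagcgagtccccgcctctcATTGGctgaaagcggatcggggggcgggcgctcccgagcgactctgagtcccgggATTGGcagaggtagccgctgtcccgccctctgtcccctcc
Mylip: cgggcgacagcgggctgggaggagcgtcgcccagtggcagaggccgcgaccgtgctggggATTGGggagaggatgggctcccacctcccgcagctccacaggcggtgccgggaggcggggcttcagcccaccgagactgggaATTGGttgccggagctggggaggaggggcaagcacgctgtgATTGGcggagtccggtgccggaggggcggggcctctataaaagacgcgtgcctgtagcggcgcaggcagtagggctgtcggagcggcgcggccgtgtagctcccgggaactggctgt

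Hmgcs1 held 1 sterol element and 4 CCAAT boxes, and Mylip 0 and 3. The sterol element was present in 181 of 32851 promoters of the same length (0.551%), in 1 of 18 promoters of the cholesterol list and in 0 of 14 of the LXR list. The 18 promoters belonged to 15 genes, with none available for Fdft1, Fdps, Sqle and Stard4. The 14 belonged to 8 genes, with none available for Abcg1. The CCAAT box was present in 37.4% of all promoters, in 15 of 18 of the cholesterol list (83.3%) and in 6 of 14 of the LXR list (42.9%). These matches are letters in a fixed window and not measured binding. The sterol element was searched as 1 exact sequence, so variants of it were not counted. No response element of LXR was searched, so the 0 of Mylip and of the LXR list does not bear on LXR.

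**Figure D5:**
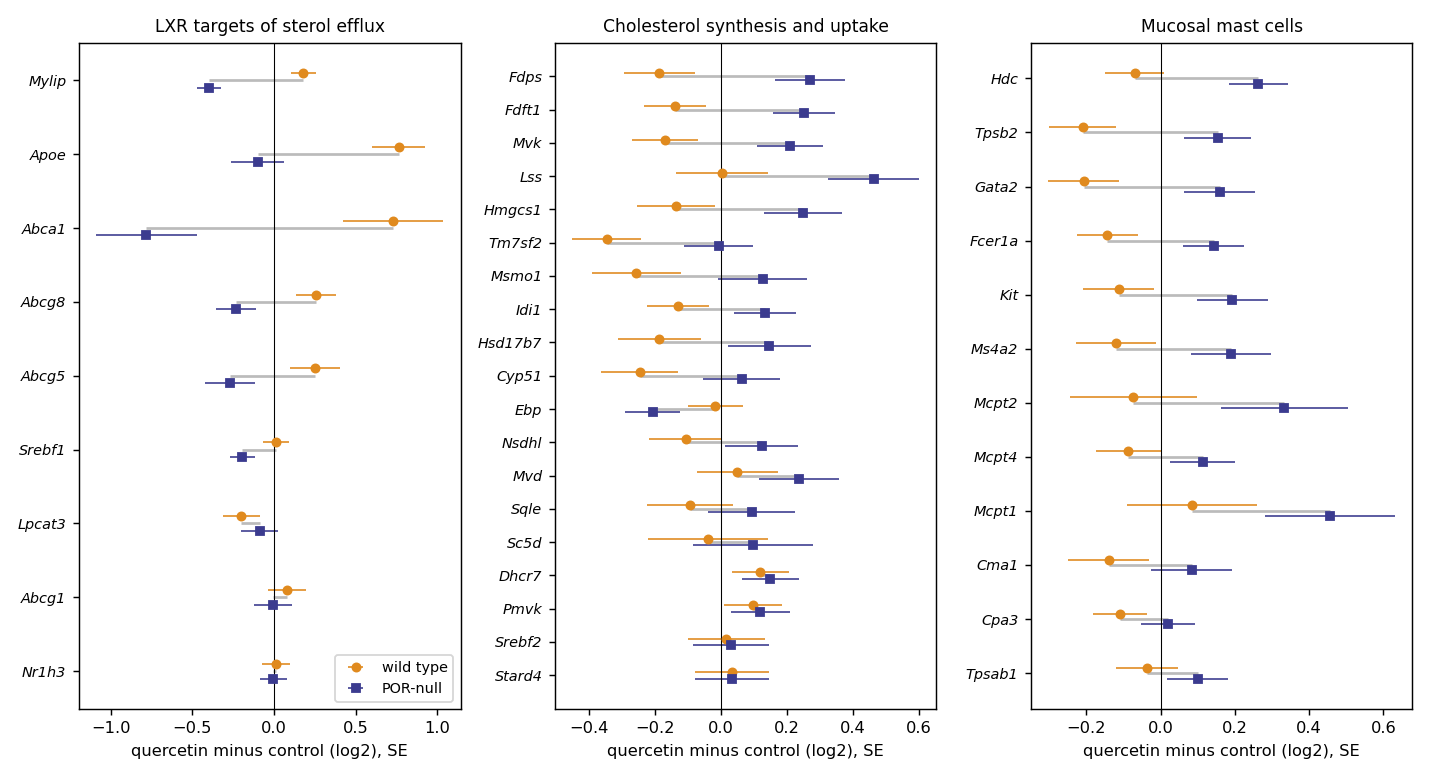
Quercetin response of each measured gene in wild type (orange circles) and POR-null (blue squares) for LXR targets, cholesterol synthesis and uptake, and mast cells (titled mucosal mast cells), as log2 differences with SE bars. Abca1 shows the widest separation, from 0.73 to -0.78, and the mast cell genes shift together with wild type to the left.

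Cd79a and Cd79b belong to the list of B and plasma cell genes. Of its 22 measured members, 13 were higher in wild type and lower in POR-null and 3 the reverse. Their median interaction was -0.29, and 9 members had an unadjusted p under 0.05 with a negative interaction and 1 with a positive one. Since Cd79a and Cd79b were chosen by these values, the counts were taken without them too: 11 of 20 had the pattern and 3 the reverse, the median was -0.27, and 7 had p under 0.05 with a negative interaction. Ms4a1, the B cell surface protein CD20, was at 6.59, 6.86 and 7.19 in wild-type control, at 6.97, 7.51 and 7.66 in wild-type quercetin, at 7.10, 6.90 and 7.22 in POR-null control and at 6.65, 6.63 and 6.69 in POR-null quercetin. The wild-type groups overlapped and the POR-null groups did not, and the interaction was -0.92 ± 0.24 (adjusted p = 0.351). Cxcr5, the chemokine receptor that guides B cells into follicles, had responses of 0.25 ± 0.07 and -0.15 ± 0.07.

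The 3 antibody genes of the list, named after their values were seen, had the same sign in both genotypes. Igha, the IgA heavy chain, had responses of 0.67 and 0.36, and Jchain, which joins IgA into dimers, 0.51 and 0.45. Ighm, the IgM heavy chain, had small responses of 0.05 and 0.04. The interactions of these 3 genes were -0.31, -0.06 and -0.0067 in the same order. The score of the whole list ran from -0.19 to 0.08 in wild-type control, from 0.10 to 0.25 in wild-type quercetin, from -0.15 to 0.15 in POR-null control and from -0.17 to 0.00 in POR-null quercetin. In bulk RNA fewer B cells and less RNA per B cell cannot be told apart, and a different share of lymphoid follicles in the scrapings was not tested.

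Class II presentation genes, which B cells, myeloid cells and ileal enterocytes express, had 7 of 9 members higher in wild type and lower in POR-null and 0 of the reverse pattern. Of these 9, 1 had an unadjusted interaction p under 0.05 (limma). The median interaction was -0.46. It was -0.22 without POR-null quercetin replicate 1 and -0.72 without POR-null control replicate 3, so single arrays set much of its size. H2-Eb1, a class II beta chain, was at 10.79, 10.24 and 10.43 in wild-type control, at 10.57, 10.70 and 10.92 in wild-type quercetin, at 10.88, 10.82 and 10.24 in POR-null control and at 9.81, 10.36 and 10.43 in POR-null quercetin. Its groups overlapped in both genotypes, and the interaction of -0.69 ± 0.27 had an adjusted p of 0.446. Cd74, the invariant chain, had responses of 0.18 ± 0.20 and -0.40 ± 0.20.

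T cell and myeloid lists had shares nearer those of all genes. Of 19 T cell and intraepithelial lymphocyte genes, 5 were higher in wild type and lower in POR-null and 3 the reverse, with a median interaction of -0.11, which was -0.02 without wild-type control replicate 2. Of 16 myeloid genes, 4 and 5 had the opposite patterns, and the median of -0.03 turned to 0.04 without wild-type control replicate 2. Within the myeloid list, Cd14, a receptor for bacterial lipopolysaccharide, had responses of -0.26 ± 0.09 and 0.16 ± 0.09, and C1qa, a complement chain of macrophages, 0.20 ± 0.08 and -0.11 ± 0.08.

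Mast cell genes lay on the other side. Their list is labelled mucosal mast cells in the figures, but its members are not limited to mucosal mast cells. All 12 measured had an interaction above 0 and 11 were lower in wild type and higher in POR-null, with a median interaction of 0.31 and 5 members with an unadjusted p under 0.05. Hdc, which makes histamine, was at 6.29, 6.11 and 6.16 and at 6.24, 6.11 and 6.00 in wild type, and at 6.07, 5.92 and 5.97 and at 6.31, 6.23 and 6.21 in POR-null. The POR-null groups did not overlap and the wild-type groups did. Its interaction was 0.33 ± 0.11 (adjusted p = 0.413). Tpsb2, a mast cell tryptase, had responses of -0.21 ± 0.09 and 0.15 ± 0.09, and Gata2, a transcription factor of mast cells, -0.21 ± 0.10 and 0.16 ± 0.10.

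The mast cell score was between -0.12 and -0.09 in POR-null control and between 0.01 and 0.13 in POR-null quercetin, without overlap, and between 0.01 and 0.12 (control) and between -0.13 and 0.05 (quercetin) in wild type. Members were dim, with mean levels from 3.88 (Fcer1a) to 6.55 (Gata2), and the 2 dimmer bins of all probe sets had median interactions of 0.06 and 0.08. In those bins 41.2% and 42.5% of probe sets were lower in wild type and higher in POR-null. After quantile normalization the medians of those bins were 0.0088 and 0.019, and the list's median was 0.25 with 11 of 12 of the same pattern. Without wild-type control replicate 2 the list's median was 0.30 with 12 of 12. The part of level in the values of the list was not tested.

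Genes that mark position along the gut were read in 2 lists. Of 15 proximal small intestine genes, 9 were lower in wild type and higher in POR-null and 1 the reverse, with a median interaction of 0.34. It was 0.21 without wild-type control replicate 2, with 7 of that pattern and 3 of the reverse, and 0.71 without wild-type control replicate 1. Cyp2b10, a drug-metabolising P450, was at 7.49, 9.40 and 7.52 in wild-type control, at 8.31, 6.70 and 5.84 in wild-type quercetin, at 7.86, 6.51 and 6.58 in POR-null control and at 8.03, 8.23 and 7.73 in POR-null quercetin. Its groups overlapped in both genotypes, and its interaction of 2.20 ± 0.82 had an adjusted p of 0.435. Apoa4, an apolipoprotein of chylomicrons, had responses of -0.44 ± 0.20 and 0.43 ± 0.20. Slc40a1, the iron exporter ferroportin, ran against the list at -0.10 ± 0.26 and -1.11 ± 0.26.

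Ileal genes had the opposite tendency: 8 of 12 were higher in wild type and lower in POR-null and 3 the reverse, with a median interaction of -0.17, which was -0.12 without POR-null control replicate 3. Fgf15, the hormone that tells the liver to make less bile acid, had the widest difference. It was at 6.64, 6.63 and 6.63 in wild-type control, at 7.01, 8.88 and 7.77 in wild-type quercetin, at 5.31, 7.20 and 6.85 in POR-null control and at 5.56, 5.36 and 5.70 in POR-null quercetin. The wild-type groups did not overlap. In POR-null, 1 control array was below and the other 2 above all quercetin arrays. The interaction was -2.17 ± 0.62 (adjusted p = 0.357).

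Nr1h4, the bile acid receptor FXR that switches on Fgf15, was at 8.22, 7.92 and 8.01 in wild-type control, at 8.47, 8.56 and 8.43 in wild-type quercetin, at 8.95, 8.46 and 8.47 in POR-null control and at 8.50, 8.34 and 8.45 in POR-null quercetin. The wild-type groups did not overlap, the POR-null groups did, and the interaction was -0.63 ± 0.17 (adjusted p = 0.351). Cubn, the receptor for vitamin B12 bound to intrinsic factor, had responses of 0.31 ± 0.10 and -0.19 ± 0.10. Fabp6, an FXR target as well and named after its values were seen, had small differences of the same signs: its means were 12.52 and 12.66 in wild type, against 12.32 and 12.19 in POR-null (control and quercetin). Across the 15 bile acid genes 5 had the pattern of Fgf15 and 4 the reverse, with a median of -0.06. It was 0.06 without POR-null control replicate 2 and -0.0083 without wild-type control replicate 2, where 6 and 6 had the opposite patterns. Nr5a2, a nuclear receptor that cooperates with FXR signalling, had responses of 0.41 ± 0.09 and -0.13 ± 0.09, and Klb, the co-receptor of FGF15, -0.18 ± 0.08 and 0.16 ± 0.08.

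RNA-processing and ribosomal genes had negative interactions that came mostly from wild type. Of 37 cytosolic ribosomal protein genes, 36 had an interaction below 0 and 14 had the opposite pattern (higher in wild type, lower in POR-null). The median interaction was -0.25, from median responses of 0.27 in wild type and 0.02 in POR-null, and 13 members had an unadjusted p under 0.05. Without wild-type control replicate 2, which had the lowest ribosomal score of the 12 arrays (-0.30), the median was -0.17. Rps19, a protein of the small subunit, was at 10.28, 9.97 and 10.02 and at 10.47, 10.62 and 10.62 in wild type, and at 10.36, 10.37 and 10.47 and at 10.19, 10.48 and 10.51 in POR-null. The wild-type groups were apart and the POR-null groups overlapped. Rps19 lay in the brightest of the 4 bins of all probe sets, where 31.0% were higher in wild type and lower in POR-null. The median interaction of that bin was -0.05, and the part of level in the values of the list was not tested.

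Of 33 hnRNP and splicing factor genes, 18 were higher in wild type and lower in POR-null and 0 the reverse. Their median interaction was -0.24, and it was -0.17 without wild-type control replicate 2. Without Hnrnpd, which was chosen by its interaction p, 17 of 32 had the pattern and the median was -0.24. Hnrnpm, a splicing regulator, had responses of 0.35 ± 0.11 and -0.23 ± 0.11, and U2af1, which recognises the end of introns, 0.31 ± 0.09 and -0.08 ± 0.09. U2af1 had no overlap in either genotype, with POR-null control at 8.10, 8.00 and 7.99 and POR-null quercetin at 7.92, 7.97 and 7.97. Among 14 snoRNA host genes, Gas5 included, 6 had that pattern and 0 the reverse, and the median was -0.18, or -0.07 without wild-type control replicate 2. Snhg8, a host gene like Gas5, had responses of 0.36 ± 0.09 and 0.04 ± 0.09.

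Purine metabolism was described by its enzymes of adenosine and guanine first. Ada, adenosine deaminase, was at 10.96, 12.41 and 12.26 in wild-type control, at 10.75, 10.13 and 11.12 in wild-type quercetin, at 11.29, 11.18 and 10.68 in POR-null control and at 11.36, 11.72 and 11.92 in POR-null quercetin. The POR-null groups did not overlap, and the wild-type groups did through wild-type control replicate 1. The interaction was 1.83 ± 0.47 (adjusted p = 0.351), and without that array it was 2.29 with an adjusted p of 0.0420 (limma). Among the fits with a single array left out, Ada passed the adjusted threshold in that one only. It is quoted because it passed, so it does not describe how far the estimate moved. The highest wild-type control value, 12.41, was that of replicate 2, and the estimate without replicate 2 is not given. Nt5e, which makes adenosine from AMP at the cell surface, was at 8.08, 8.81 and 8.16 and at 7.87, 7.51 and 7.49 in wild type, and at 7.57, 7.77 and 7.93 and at 7.83, 7.95 and 8.21 in POR-null. Its wild-type groups did not overlap and its POR-null groups did, and the interaction was 0.97 ± 0.25 (adjusted p = 0.351). Paics, an enzyme of purine synthesis, ran the other way, with 0.29 ± 0.08 and -0.07 ± 0.08. Over all 16 members, 7 were lower in wild type and higher in POR-null and 3 the reverse, with a median of 0.09, or 0.04 without wild-type control replicate 2.

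Fatty acid oxidation genes were among the lists with negative interactions: 25 of 30 were below 0, 15 were higher in wild type and lower in POR-null and 3 the reverse. The median of -0.14 ran from -0.21 to -0.09 when single arrays were left out. Slc25a20, the mitochondrial carnitine carrier, was at 9.16, 8.75 and 8.90 and at 9.07, 9.53 and 8.92 in wild type, and at 9.19, 9.20 and 9.16 and at 8.91, 8.95 and 8.88 in POR-null. Its POR-null groups did not overlap, and its interaction was -0.51 ± 0.19 (adjusted p = 0.434). Lipogenesis, desaturase and elongase genes were split, with 8 of 17 higher in wild type and lower in POR-null and 2 the reverse. The median of -0.17 was -0.05 without POR-null control replicate 3. Elovl6, which lengthens fatty acids made by lipogenesis, had responses of -0.12 ± 0.11 and 0.36 ± 0.11, and Fads2, the delta-6 desaturase, 0.26 ± 0.12 and -0.18 ± 0.12. In oxidative phosphorylation 16 of 56 and 9 of 56 had the opposite patterns and the median was -0.0083, and in gluconeogenesis and amino acid enzymes 9 and 5 of 21 did, with a median of -0.03. Without wild-type control replicate 2 these medians were -0.03 and -0.06. Fbp1, the gluconeogenic fructose bisphosphatase, stood out there with 0.41 ± 0.13 and -0.30 ± 0.13.

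The enzymes of microsomal P450 genes depend on the reductase. Of 39 measured P450 and reductase partner genes, 30 had an interaction above 0, 15 were lower in wild type and higher in POR-null and 7 the reverse, shares near those of all genes for the first pattern. The median interaction was 0.13, and 0.07 without wild-type control replicate 2. Cyp2c29 had responses of -0.45 ± 0.16 and 0.22 ± 0.16, Cyp2d9 -0.14 ± 0.12 and 0.32 ± 0.12, and Cyp4f16, from a family of fatty acid hydroxylases, 0.15 ± 0.14 and -0.34 ± 0.14. Conjugation enzymes, the main route of quercetin in enterocytes, had 14 of 36 lower in wild type and higher in POR-null and 5 the reverse, with a median of 0.08, or 0.02 without wild-type control replicate 2 and 0.0067 without wild-type quercetin replicate 3. Of these, the glucuronosyltransferases Ugt2b5 and Ugt2a3 pointed in different directions, with 0.69 ± 0.17 and -0.18 ± 0.17 for Ugt2b5 and -0.18 ± 0.26 and 0.71 ± 0.26 for Ugt2a3.

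Efflux transporters, which return quercetin conjugates to the lumen, had 3 and 2 of 9 in the opposite patterns, with a median of -0.14, or -0.03 without POR-null control replicate 2. Abcg2, which carries quercetin glucuronides, had responses of 0.20 ± 0.08 and -0.02 ± 0.08. Aryl hydrocarbon receptor targets had a median interaction of 0.02 over 10 genes, or 0.05 without wild-type control replicate 2. Nrf2 antioxidant genes had 0.01 over 21 genes, which changed sign to -0.015 without that array. Tiparp, a target of the aryl hydrocarbon receptor, had -0.21 ± 0.11 and 0.27 ± 0.11. Cyp1a1, the classical target, had -0.29 ± 0.15 and 0.17 ± 0.15. Gpx2, the glutathione peroxidase of gut epithelium, was at 11.44 ± 0.26 in wild-type control and 10.77 ± 0.30 in wild-type quercetin, and at 10.66 ± 0.17 and 10.59 ± 0.15 in POR-null (SD, n = 3), with separate groups in wild type and overlap in POR-null.

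Goblet cell genes had 11 of 11 interactions above 0 and 7 of 11 lower in wild type and higher in POR-null, with a median of 0.20 that did not change without wild-type control replicate 2. Of the 11, 1 had an unadjusted interaction p under 0.05 (limma). Tff3, the trefoil factor of mucus, lay between 13.09 and 13.34 and had responses of -0.10 and 0.08. Spink4, a goblet cell protease inhibitor, was at 11.03, 11.59 and 11.42 and at 11.15, 11.05 and 10.73 in wild type, and at 10.99, 10.77 and 10.72 and at 10.80, 11.32 and 10.95 in POR-null, with overlap in both. Its interaction was 0.57 ± 0.22 (adjusted p = 0.445). Paneth cell genes had 2 and 2 of 6 in the opposite patterns, with a median of 0.02 that was 0.39 without wild-type control replicate 2. Itln1, an intestinal lectin of Paneth and goblet cells, had -0.22 ± 0.23 and 0.64 ± 0.23. Enteroendocrine genes had 5 and 3 of 16 in the opposite patterns, with a median of -0.015, or -0.055 without wild-type control replicate 2. Pyy, the satiety hormone of the distal gut, was at 8.59, 8.27 and 8.33 and at 8.53, 8.46 and 8.66 in wild type, and at 8.87, 8.93 and 8.85 and at 8.46, 8.40 and 8.68 in POR-null. Its POR-null groups did not overlap, and the interaction was -0.52 ± 0.14 (adjusted p = 0.351).

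Crypt stem cell genes (14 measured, median 0.05), enterocyte and brush border genes (14, -0.02) and cell cycle genes (32, -0.09) gave medians that changed sign when a single array was left out. Without wild-type control replicate 2 they were 0.08, -0.05 and 0.10 in the same order. Treh, the brush border trehalase, was the exception in size, with -0.44 ± 0.27 and 0.58 ± 0.27. Tissues that should be scarce in the scrapings were read the same way. Smooth muscle and stroma genes had 6 and 2 of 22 in the opposite patterns (median -0.07, 0.13 without POR-null control replicate 1 and -0.10 without wild-type control replicate 2), red blood cell genes 1 and 3 of 5 (0.05, or 0.09 without the latter array), and pancreatic acinar genes 2 and 6 of 11 (0.17). The acinar score ran from -0.13 to 0.09 over the 12 arrays.

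Stress and signalling lists held single genes with opposite responses. Chac1, a glutathione-degrading enzyme of the unfolded protein response, had -0.35 ± 0.11 and 0.27 ± 0.11, while the median of its 20 genes was -0.015, or -0.0092 without wild-type control replicate 2. Fosl1, a subunit of the AP-1 transcription factor, was at 5.47, 5.66 and 5.54 and at 5.39, 5.43 and 5.41 in wild type, and at 5.39, 5.27 and 5.27 and at 5.52, 5.60 and 5.45 in POR-null, without overlap in either, among 24 immediate early genes with a median of 0.05, or 0.03 without wild-type control replicate 2. The 19 heat shock chaperones had median responses of -0.14 in wild type and -0.12 in POR-null and a median interaction of 0.04, or 0.02 without wild-type control replicate 2. Interferon response genes had 12 of 30 lower in wild type and higher in POR-null and 6 the reverse, with a median of 0.02, or 0.04 without wild-type control replicate 2. Oasl2, an interferon-induced gene, had -0.68 ± 0.18 and 0.05 ± 0.18, and Usp18, which restrains interferon signalling, -0.35 ± 0.27 and 0.60 ± 0.27.

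Circadian clock genes had 7 of 18 lower in wild type and higher in POR-null and 3 the reverse (median 0.14, and 0.06 without wild-type control replicate 2), and Wee1, a clock-controlled kinase of the cell cycle, had -0.16 ± 0.07 and 0.07 ± 0.07. Growth factor signalling genes had 10 and 5 of 21 in those patterns (median 0.14). Deptor, an inhibitor of the mTOR kinase, was at 8.16, 7.92 and 8.01 and at 7.25, 7.39 and 7.59 in wild type, and at 7.66, 7.90 and 8.17 and at 8.02, 7.86 and 7.99 in POR-null. The wild-type groups were apart and the POR-null groups overlapped, and the interaction was 0.67 ± 0.17 (adjusted p = 0.351). Of 17 lysosomal protease genes, 5 were higher in wild type and lower in POR-null and 2 the reverse, with a median of -0.06. Lgmn, the lysosomal legumain, was at 7.57 ± 0.14 and 7.76 ± 0.09 in wild type and at 8.34 ± 0.26 and 8.17 ± 0.19 in POR-null, so the genotypes were closer to each other on quercetin than on control, and its interaction of -0.37 ± 0.18 had an adjusted p of 0.502.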

How the data were processed

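RNA of scraped ileal epithelium was hybridised to 12 Affymetrix 430A arrays, 3 per group, each a pool of RNA from 3 mice. The authors deposited log2 expression levels per probe set (2.66 to 14.04, array medians 5.91 to 5.96), which were used as deposited; MAS5 and RMA are named in the submitters' processing notes without a role or version. The platform annotation gave 1 symbol to 20380 probe sets, several to 691 and none to 1555, and 20351 matched the gene table of GRCm38.p6. For each of 12393 genes the probe set with the highest mean was used.

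A limma 3.58.1 model (R 4.3.3, lmFit and eBayes) with 1 coefficient per group was fitted to the 12 arrays (8 residual and 5.59 prior degrees of freedom, median residual SD 0.11) and tested on simulated data. Adjusted p-values follow Benjamini-Hochberg over the 22626 probe sets, with a threshold of 0.05. The number of arrays limits the precision, and p-values measure the spread between pools.

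Named were the 14 genes with the smallest interaction p of each opposite pattern, 4 of the same sign, and up to 4 members of each list. Members and lists (39, 738 genes measured, 29 on more than 1 list) were chosen with earlier results of these data known. Alternatives were quantile normalization, median centring, filters on dim probe sets, trend and robust eBayes, a block for the replicate number, array weights, averaging a gene's probe sets, and leaving out each array. Replicate numbers showed no clear pairing of the arrays over all probe sets. Figures used Python 3.11.15, pandas 2.3.3 and matplotlib 3.10.9.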

Additional observations from a re-analysis of the deposited data

How the results depend on the processing

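The count of probe sets past an adjusted p of 0.05 was 0 as fitted, 2 with trend and robust eBayes (Cd79b at 0.0265 and Gas5 at 0.0319), 3 with the replicate number as a block (Cd79b, Clu and Mfge8), 2 at an adjusted p under 0.1, and from 0 to 9 when 1 array was left out. It stayed at 0 after quantile normalization, median centring, array weights and both filters on dim probe sets. The 9 calls came without wild-type control replicate 1. The same-numbered arrays' deviations correlated with r from -0.18 to 0.16 over 18 pairs, 3 of them over 0.1. These values showed no clear pairing over all probe sets. They cannot decide whether same-numbered arrays shared a batch that touched some genes, which was not tested. With the block, 2471 probe sets had an unadjusted p under 0.05 and 151 had it in both genotypes with opposite sign.

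The unadjusted count of 2332 was 1124 without the probe sets below the median level and ran from 1702 to 2791 when 1 array was left out. The opposite count with p under 0.05 in both genotypes (123) was 67 without those and ran from 80 to 175. The count without overlap (220) was 109 without those and ran from 305 to 542, since fewer arrays overlap less often by construction. Of 628 alternative values of the named genes, 617 kept their side of the threshold, 11 passed it and 0 changed the sign of the interaction. Median interactions changed sign in 18 of 39 lists when some array was left out, in 6 after quantile normalization and in 4 after median centring, which for the lists was chosen after seeing the data.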

Other observations

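A few genes outside the rule for named genes passed an adjusted p of 0.05 only when 1 array was left out, or with the replicate number as a block, and were chosen after their values were seen. Cxcl13, the chemokine that draws B cells into follicles through the receptor Cxcr5, had responses of 0.73 and -0.53 and an interaction of -1.26 ± 0.27 (limma, adjusted p = 0.261 with all arrays, 0.0260 without POR-null quercetin replicate 3). Its other probe set had responses of 0.12 and -0.31. Clu, a secreted chaperone, had 0.47 and -0.50, with an interaction of -0.96 ± 0.23 and an adjusted p of 0.342. Hoxb6, a homeobox factor of body position, had 0.40 and -0.45, with an interaction of -0.85 ± 0.18. Gpx3, the secreted glutathione peroxidase, had the reverse pattern at -0.42 and 0.52. Duoxa2, the maturation factor of the dual oxidase of the epithelium, had -0.76 in wild type and -0.01 in POR-null. Gpx3, Hoxb6 and Duoxa2 passed only without wild-type control replicate 1.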
